A study of Mus musculus with 6 samples.

Results

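The genes described here encode the proteins that mark replication origins, load and activate the replicative helicase, copy the DNA and package it behind the fork. They are 46 genes picked by symbol in 12 roles, from origin recognition to chromatin assembly. Each of the 46 was found among the 53735 features of the deposited count table, and 46 of 46 passed the filter on low counts, so no member is missing from the test. In stromal cells fed apoptotic thymocytes, set against unfed controls, 42 of the 46 were called higher at an adjusted p under 0.05, where 20.5% of all genes tested were, and 0 were called lower. The 4 that were not called were Orc3, Orc4, Orc5 and Rfc1.

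The fed group held 3 libraries of mesenchymal stromal cells from the marrow of wild-type mice. The cells had been sorted as lineage-, CD45-, CD31- and CD51+, expanded at 2% oxygen to passage 2 or 3, given 5000000 dye-labelled apoptotic thymocytes per well for 24 h at 5% oxygen, and sorted again for cells that carried the label. The control group held 3 libraries of the same kind of wild-type cells that received no thymocytes and were also sorted. Feeding therefore cannot be told apart from selection of the cells that took up label, and the oxygen at which control wells spent the last 24 h is not stated in the labels. It is not stated whether the 3 libraries in a group derive from different cultures or animals, so the p-values measure the spread between these libraries, which may be technical.

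As background, the origin recognition complex (ORC) sits on origins, and with Cdc6 and Cdt1 it loads the ring-shaped MCM2-7 helicase in G1, a step called licensing. Geminin, encoded by Gmnn, binds Cdt1 and blocks a repeat of licensing in S phase. The Dbf4-dependent kinase then helps Cdc45 and the GINS complex to join MCM2-7 as the active CMG helicase, and polymerases alpha, delta and epsilon, the PCNA clamp, its loader RFC and the single-strand binder RPA make up the moving replisome. Many of these genes are known targets of E2F transcription factors in dividing cells, and marrow stromal cells divide when expanded in culture.

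Library totals were 20034583 to 22410047 counts in the fed group and 19069074 to 21949519 in the control group. The second principal component, with 14.3% of the variance, placed control replicate 3 at the far end from control replicates 1 and 2, and all 42 calls below held without it. The 9 stromal markers, among them Pdgfra, Pdgfrb, Col1a1 and Prrx1, were all tested and summed to 31642 to 33558 CPM (each count taken per TMM-scaled library total) in fed cells and 36056 to 37509 CPM in control cells. Col1a1 and Col1a2 held most of that sum, with means of 17818 and 11002 CPM in fed cells and 19408 and 12550 CPM in control cells. Of these 9 markers, 5 were lower and 0 higher in fed cells by the test described next. Over all genes tested, 19.0% were lower and 20.5% higher. Prrx1 and Cxcl12 were among the 4 markers not called, with log2 fold changes of -0.010 and -0.45 (edgeR adjusted p = 0.0538 for Cxcl12). The log2 fold change was positive in 0 of the 9. In 6 of the 9 all fed libraries were below all control libraries, as in 24.0% of all genes tested. The 17 thymocyte markers summed to 3.08 to 4.54 CPM in fed and 2.98 to 3.48 CPM in control cells. Cd3g, Ptcra, Rag2, Cd2 and Cd5 had 0 counts in all 6 libraries, and Cd3d, Cd3e and Cd4 had at most 3 in any library. Most counts of the list came from Tcf7 and Lck in both groups. Of the more specific genes, Rag1 had 7, 6 and 12 counts in fed against 0, 2 and 1 in control libraries, and Dntt had 5, 1 and 3 in fed against 0 in each control library. Cd8b1 had 3, 2 and 2 counts and Cd8a 1, 1 and 3 in fed libraries, against 0 in each control library. The 10 macrophage and leukocyte markers summed to 19.8 to 21.4 CPM in fed and 13.8 to 15.1 CPM in control cells, with Fcgr1 at 0 in all 6 libraries. Of the 4 tested, Lyz2 and Cd14 were higher in fed cells. Csf1r and Cd68 were not called, with log2 fold changes of -0.090 and 0.18. Laptm5 had 9, 6 and 10 counts, Adgre1 5, 3 and 3, Tyrobp 3, 4 and 2 and Itgam 0, 2 and 2 in fed libraries. Each of these had at most 1 count in any control library. Ptprc, which encodes CD45, had 5, 2 and 3 counts in fed against 0, 1 and 0 in control libraries. The 6 endothelial markers summed to 8.32 to 8.97 CPM in fed and 7.48 to 8.31 CPM in control cells, with Cdh5 and Emcn at 0. The part of the thymocyte, macrophage, endothelial and stromal markers in the results was not tested.

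The replication genes moved together in fed cells. The 46 genes held 50495, 57182 and 56606 counts in the fed libraries, or 0.252%, 0.266% and 0.253% of each total, against 35760, 36976 and 33952 counts in the control libraries, or 0.163%, 0.172% and 0.178%. Every fed library was thus above every control library. By edgeR's quasi-likelihood test, with p-values adjusted over 13092 genes by Benjamini-Hochberg and a threshold of 0.05, 42 of 46 were higher in fed cells, where 20.5% of all genes tested were, and 0 were lower, where 19.0% were. In 42 of 46 each fed library lay above each control library, which held for 25.1% of all genes tested. The median log2 fold change was 0.60 over the 46 genes and -0.0066 over all genes tested, and 2.99% of the genes tested reached that median or more. Among the 42 called genes the fold change ran from 1.21-fold to 2.09-fold with a median of 1.52-fold, so 24 passed 1.5-fold and 1, Orc1, passed 2-fold. In bulk RNA, more cells in S phase and more of these transcripts per cell cannot be told apart.

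**Figure D1:**
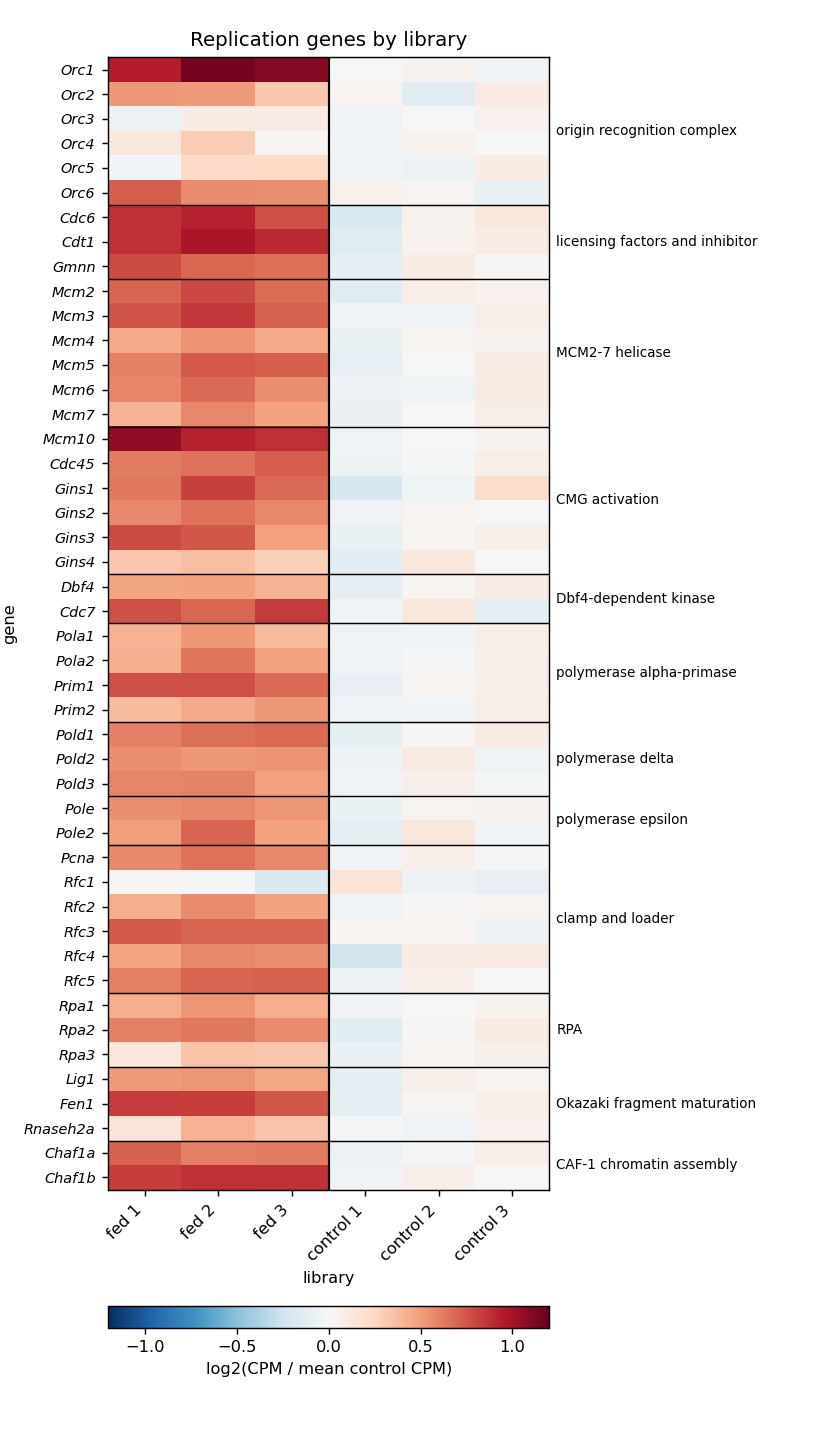
Heat map of the 46 replication genes (rows, grouped by role) in the 3 fed and 3 control libraries (columns). Colour is the log2 ratio of each library's CPM to the mean control CPM of that gene. The 3 fed columns are higher in every row but Orc3, Orc4, Orc5 and Rfc1, where the groups overlap.

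The heat map of the libraries shows that the fed libraries were alike. The median member stood 0.58, 0.63 and 0.55 above its control mean on the log2 scale in fed replicates 1, 2 and 3, and -0.057, 0.028 and 0.051 from it in control replicates 1, 2 and 3. Control replicate 1 was the lowest of the controls, with 5 of the 46 genes above their control mean, compared with 32 and 34 in control replicates 2 and 3. The summed CPM of the members was 2503, 2629.6 and 2493 in the fed libraries, against 1657, 1746 and 1788 in the control libraries. The lowest count of any member in any library was 72 and the highest 5063, and the standard errors of the log2 fold changes lay between 0.039 and 0.12.

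The start regions of these genes were searched because E2F sites are a known feature of the family. The window ran from 250 bases before to 50 bases after each RefSeq start (GRCm38.p6). Of the 46 genes, 38 had at least 1 window. The E2F consensus was taken as TTTCCCGC, TTTCGCGC, TTTGCCGC or TTTGGCGC on either strand, where forms can overlap, and 15 of the 38 genes (39.5%) held at least 1. The share was 4.81% of the 9299 tested genes with a window. The CCAAT box, searched as CCAAT on either strand, stood in 60.5% of the 38 genes and 43.2% of tested genes, and the CHR element, searched as TTTGAA, in 18.4% and 13.9%. The stretches below, 5′ to 3′ on the gene's strand with the E2F letters in capitals, are shown because they belong to the genes of origin recognition, licensing and the helicase on which the results turn, and Orc3 is shown as the gene that held the letters and was not called. Those of Orc1 (chr4:108579416-108579445, plus strand), Cdc6 (chr11:98908002-98908031, plus strand), Cdt1 (chr8:122568035-122568064, plus strand) and Mcm3 (chr1:20820266-20820295, minus strand) give 30 bases around the match. Those of Mcm5 (chr8:75109317-75109406, plus strand), Mcm6 (chr1:128359736-128359825, minus strand) and Orc3 (chr4:34614945-34615034, minus strand) give 90 bases outside the gene.
Orc1: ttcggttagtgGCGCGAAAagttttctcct
Cdc6: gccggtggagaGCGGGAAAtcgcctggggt
Cdt1: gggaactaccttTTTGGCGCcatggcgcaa
Mcm3: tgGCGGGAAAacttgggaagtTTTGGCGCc
Mcm5: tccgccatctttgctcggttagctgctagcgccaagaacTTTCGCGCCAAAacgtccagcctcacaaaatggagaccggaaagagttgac
Mcm6: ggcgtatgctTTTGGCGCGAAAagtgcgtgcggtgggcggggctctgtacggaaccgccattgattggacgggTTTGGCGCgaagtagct
Orc3: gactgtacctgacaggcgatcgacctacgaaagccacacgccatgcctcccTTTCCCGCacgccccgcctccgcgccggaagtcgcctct
In Mcm5 and at the first site of Mcm6, a form on the gene's strand overlaps another form on the opposite strand. Mcm6 had 3 matches, more than any other of the 15 genes, and Mcm3, Mcm5, Mcm7 and Rfc3 had 2 each. Of the 15 genes with the letters 14 were called higher, with a median log2 fold change of 0.65 over the 15. Of the 23 genes with a window and no match 20 were called higher, with a median of 0.60. The 8 genes with no window were all called higher, with a median of 0.53. Over all genes tested, 20.5% were called higher. Genes without a match in this window therefore also rose, among them Mcm10, Chaf1b, Fen1 and Pcna. A match is a run of letters and not a measured binding site.

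**Figure D2:**
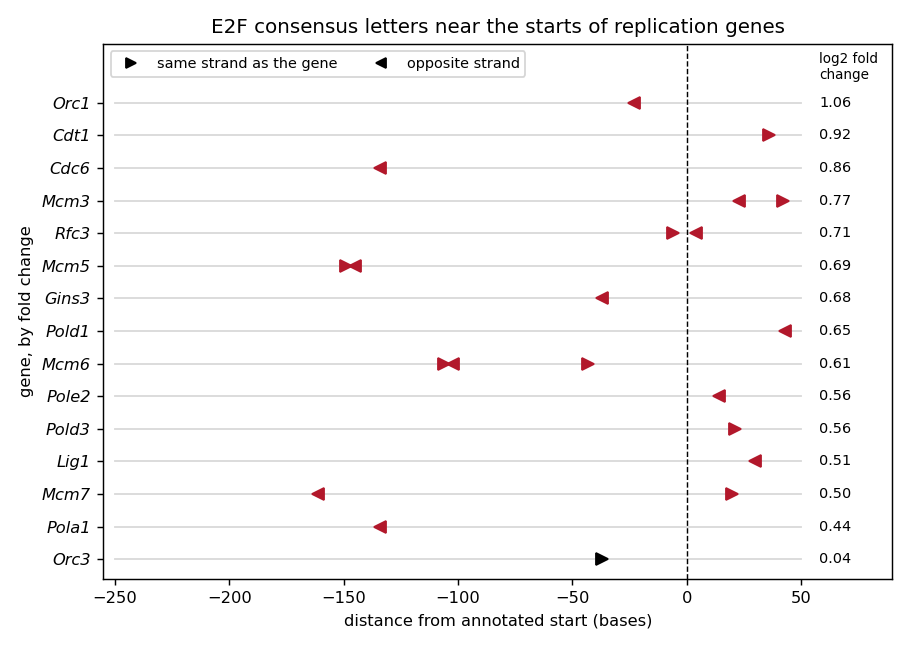
Positions of E2F consensus letters in the start windows of the 15 replication genes that hold them, in bases from the annotated start (dashed line at 0), ordered from the largest log2 fold change (fed over control, printed at the right) to the smallest. Triangles point right for the gene's strand and left for the opposite strand; the black one is Orc3, which was not called.

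Within the origin recognition complex the subunits divided. Orc1, Orc2 and Orc6 were higher in fed cells, and Orc3, Orc4 and Orc5 did not pass the test. Orc1 (chromosome 4, 108579423 to 108614833), an ATPase subunit whose protein is known from human cells to come and go with the cell cycle, had 7.73, 8.92 and 8.63 CPM in fed cells, against 4.03, 4.16 and 3.90 CPM in control cells. Its log2 fold change of 1.06 ± 0.11 (SE, edgeR adjusted p = 2.79e-07) was the largest of the 46 genes. Orc6, a small subunit needed for MCM2-7 loading in yeast, had 28.9, 25.8 and 25.7 CPM in fed cells, against 18.0, 17.9 and 16.4 CPM in control cells, and Orc2 a log2 fold change of 0.46 ± 0.068 (SE, edgeR adjusted p = 2.30e-05). In all 3 the fed libraries were above all control libraries, as in 25.1% of all genes tested.

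Orc3 and the other 2 uncalled subunit genes had fed and control values that overlapped. Orc3 had 45.2, 50.4 and 50.8 CPM in fed cells, against 46.1, 47.1 and 49.0 CPM in control cells, with a log2 fold change of 0.044 ± 0.052 (SE, edgeR adjusted p = 0.534). Orc4 and Orc5 belong with Orc1 to the ATPase-type subunits. For Orc4 the values were 24.2, 27.5 and 22.4 CPM in fed cells, against 21.6, 22.9 and 22.1 CPM in control cells, a log2 fold change of 0.15 ± 0.071 (SE, edgeR adjusted p = 0.0954). For Orc5 they were 15.7, 18.8 and 18.9 CPM in fed cells, against 15.7, 15.4 and 17.2 CPM in control cells, a log2 fold change of 0.15 ± 0.079 (SE, edgeR adjusted p = 0.133). All 3 had overlapping groups, with fed replicate 1 the lowest fed library in Orc3 and Orc5 and fed replicate 3 the lowest in Orc4. The call depended on the setting in 2 of them. Orc4 was called higher with library totals only (edgeR adjusted p = 0.0433) and without fed replicate 3 (0.0242), and Orc5 without fed replicate 1 (0.0205). For these 3, a missed threshold does not show equal levels.

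The shares of the ORC genes with the largest and the smallest log2 fold change restate those changes as a makeup of the complex, and are given as a description. Per kilobase of exon, Orc1 made up 6.03, 6.81 and 6.94% of the summed ORC level in the fed libraries, against 4.09, 4.28 and 3.89% in the control libraries. Orc3 made up 20.1, 22.0 and 23.3% in fed and 26.7, 27.7 and 27.9% in control libraries.

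The licensing factors and their inhibitor rose together, 3 of 3, where 20.5% of all genes tested were higher. Cdt1, which brings MCM2-7 to the origin, had 37.4, 40.2 and 37.9 CPM in fed cells, against 18.4, 20.97 and 21.7 CPM in control cells. Its log2 fold change was 0.92 ± 0.064 (SE, edgeR adjusted p = 1.02e-09). Cdc6, the ATPase that completes the loader, had 29.4, 30.4 and 27.4 CPM in fed cells, against 14.1, 16.5 and 17.5 CPM in control cells, a log2 fold change of 0.86 ± 0.074 (SE, edgeR adjusted p = 2.01e-08). Gmnn, whose product geminin restrains Cdt1, had 28.3, 26.5 and 25.9 CPM in fed cells, against 15.2, 17.5 and 16.6 CPM in control cells, a log2 fold change of 0.71 ± 0.068 (SE, edgeR adjusted p = 6.55e-08). In all 3 genes each fed library was above each control library, as in 25.1% of all genes tested. The ratio of Cdt1 to Gmnn, both as CPM per kilobase of exon, was 0.617, 0.708 and 0.682 in the fed libraries and 0.566, 0.560 and 0.608 in the control libraries. The ratio did not overlap between the groups (exact two-sided permutation p = 0.1, the smallest that 3 against 3 libraries allow). It follows from the fold changes of both genes and is given as a description.

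The 6 genes of the MCM2-7 ring were higher in fed cells, where 20.5% of all genes tested were. Their log2 fold changes lay between 0.49 and 0.77. Their summed level was 877, 945 and 884 CPM in fed and 555, 587 and 618 CPM in control libraries. Mcm3 (chromosome 1, 20802968 to 20820312) had 139.9, 149.9 and 136 CPM in fed cells, against 80.9, 81.0 and 87.4 CPM in control cells. It changed most of the ring, with a log2 fold change of 0.77 ± 0.044 (SE, edgeR adjusted p = 1.06e-10), which was also the smallest adjusted p of the 46 genes. Mcm2 followed with 119.7, 128 and 118 CPM in fed cells, against 67.5, 78.1 and 76.3 CPM in control cells, a log2 fold change of 0.72 ± 0.050 (SE, edgeR adjusted p = 6.46e-09). Both stood well clear of their controls, with control replicate 1 the lowest library in each.

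Mcm5 had 129, 142 and 139.9 CPM in fed cells, against 79.3, 85.0 and 90.8 CPM in control cells (log2 fold change 0.69). Mcm6, the highest of the ring per kilobase of exon, had 219, 233 and 214 CPM in fed cells, against 139.7, 141 and 156 CPM in control cells (log2 fold change 0.61). Upstream stretches of both genes with E2F letters are among those printed above. Mcm7 had 123, 136 and 128 CPM in fed cells, against 86.7, 92.1 and 95.9 CPM in control cells, and its log2 fold change was 0.50 ± 0.045 (SE, edgeR adjusted p = 4.75e-08). Mcm4, which with Mcm6 and Mcm7 forms the core that unwinds DNA in vitro, had 147, 156 and 147 CPM in fed cells, against 101, 109.6 and 111 CPM in control cells, with a log2 fold change of 0.49 ± 0.042 (SE, edgeR adjusted p = 1.82e-08). Mcm4 and Mcm7 thus had the smallest changes of the ring, with no overlap between the groups in either.

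The same description for the ring takes Mcm3 and Mcm4, which had its largest and smallest log2 fold changes. Per kilobase of exon, Mcm3 held 18.4, 18.3 and 17.7% of the summed MCM2-7 level in fed libraries and 16.7, 15.9 and 16.3% in control libraries. Mcm4 held 20.3, 20.0 and 20.1% in fed and 21.9, 22.5 and 21.6% in control libraries.

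Genes that turn the loaded ring into the active helicase rose as well. The set of Mcm10, Cdc45 and GINS had 6 of 6 higher and the Dbf4-dependent kinase 2 of 2. Of all genes tested, 20.5% were higher. Mcm10, which helps to activate the CMG helicase and binds polymerase alpha, had 27.0, 24.5 and 23.7 CPM in fed cells, against 12.5, 12.9 and 13.2 CPM in control cells. Its log2 fold change of 0.96 ± 0.070 (SE, edgeR adjusted p = 2.33e-09) was exceeded only by Orc1 among the 46. Gins1, a GINS subunit, had 8.18, 9.34 and 8.46 CPM in fed cells, against 4.59, 5.10 and 6.16 CPM in control cells, a log2 fold change of 0.72 ± 0.12 (SE, edgeR adjusted p = 5.61e-05). Its control replicate 3 was higher than the other controls, and the groups still did not overlap. Gins2, another GINS subunit, had 44.1, 46.3 and 44.0 CPM in fed cells, against 28.7, 30.1 and 29.7 CPM in control cells. Cdc45, Gins3 and Gins2 had log2 fold changes of 0.67, 0.68 and 0.60. Gins4 changed least of the set, with a log2 fold change of 0.32 ± 0.061 (SE, edgeR adjusted p = 2.76e-04).

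The kinase that fires the loaded origins had both its subunits higher, where 20.5% of all genes tested were. Cdc7, the catalytic subunit and the lowest of the 46 genes per kilobase of exon, had 6.94, 6.58 and 7.31 CPM in fed cells, against 3.98, 4.49 and 3.79 CPM in control cells. Its log2 fold change was 0.76 ± 0.12 (SE, edgeR adjusted p = 3.27e-05). Dbf4, the regulatory subunit that gives the kinase its activity, had 51.7, 52.1 and 49.9 CPM in fed cells, against 34.3, 37.9 and 39.7 CPM in control cells, a log2 fold change of 0.46 ± 0.054 (SE, edgeR adjusted p = 9.67e-07). In both, all fed libraries were above all control libraries.

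**Figure D3:**
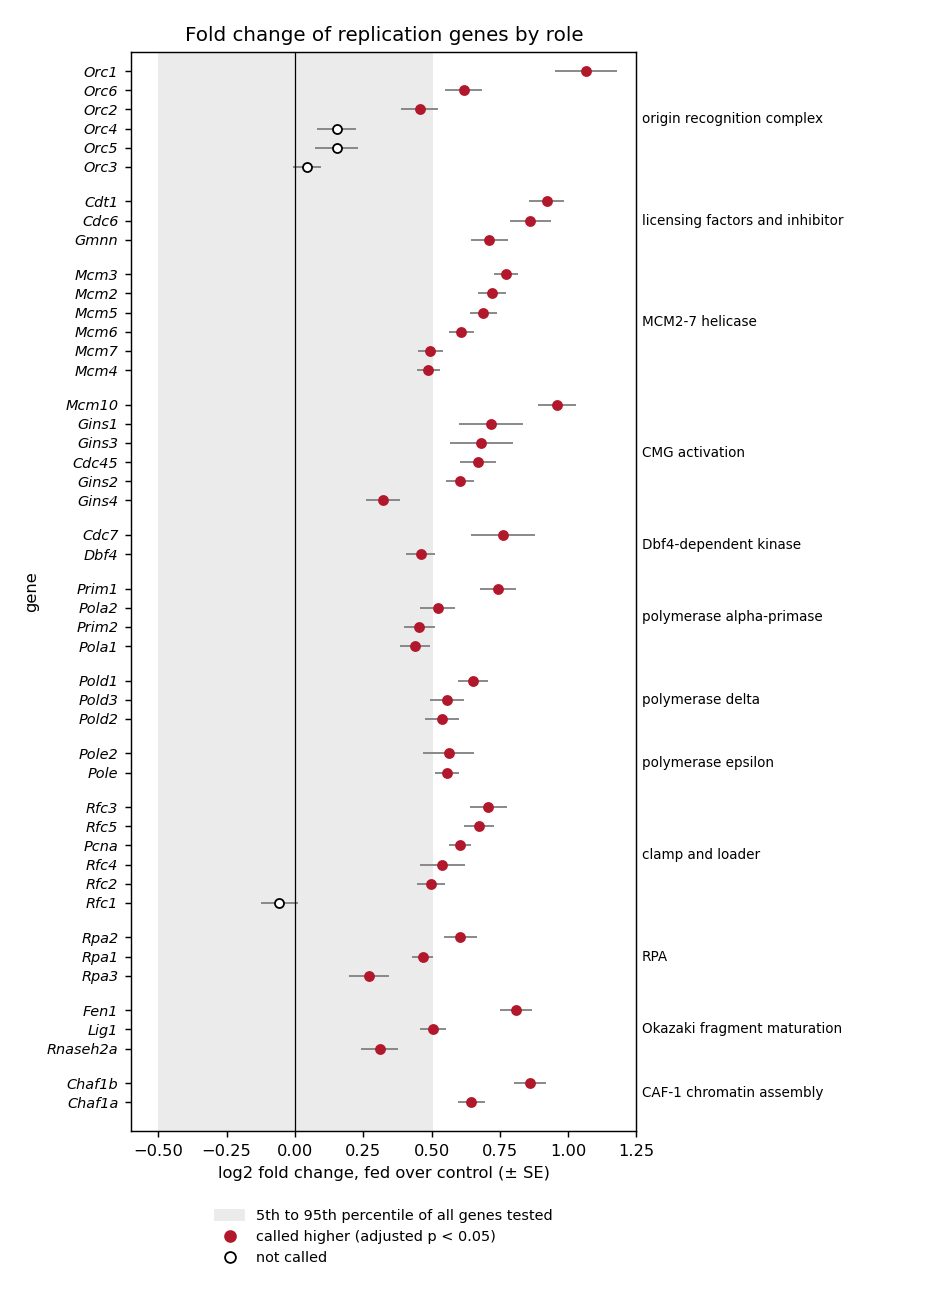
Log2 fold change (fed over control, ± SE from edgeR) of the 46 replication genes, grouped by role and sorted within it. Filled points were called higher, open points were not called, and the grey band spans the 5th to the 95th percentile of all genes tested, -0.50 to 0.50.

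The 9 genes picked here for the replicative polymerases were all higher in fed cells, where 20.5% of all genes tested were. They are not every subunit gene, since Pold4, Pole3 and Pole4 were placed among the accessory factors described below. Of those, Pole3 and Pole4 were higher, with log2 fold changes of 0.19 and 0.23. Pold4 was not called, at -0.072. In polymerase alpha-primase, which makes the RNA-DNA primers, the catalytic primase subunit Prim1 had 27.3, 27.2 and 25.5 CPM in fed cells, against 14.8, 16.3 and 16.6 CPM in control cells. Prim1 had the largest change of the 4, a log2 fold change of 0.74 ± 0.066 (SE, edgeR adjusted p = 2.66e-08). Pola1, the polymerase subunit, had 43.5, 46.8 and 42.4 CPM in fed cells, against 31.6, 31.9 and 34.4 CPM in control cells, a log2 fold change of 0.44 ± 0.055 (SE, edgeR adjusted p = 2.34e-06). Pola2 and Prim2 had log2 fold changes of 0.52 and 0.46, as shown in the plot of fold change by role.

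The catalytic subunits of both remaining polymerases were higher. Pold1, of polymerase delta, had 50.6, 52.4 and 53.1 CPM in fed cells, against 30.6, 33.6 and 35.3 CPM in control cells, with a log2 fold change of 0.65 ± 0.054 (SE, edgeR adjusted p = 1.24e-08). Pole, of polymerase epsilon, had 77.2, 78.2 and 75.4 CPM in fed cells, against 49.5, 53.5 and 53.9 CPM in control cells, with a log2 fold change of 0.56 ± 0.044 (SE, edgeR adjusted p = 6.97e-09). Their partners Pold2, Pold3 and Pole2 had log2 fold changes of 0.54, 0.56 and 0.56. In each of these 5 genes the groups did not overlap.

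The sliding clamp and 4 of the 5 loader subunits rose, where 20.5% of all genes tested were higher. Pcna, whose product encircles DNA and tethers the polymerases, had 137, 144 and 136 CPM in fed cells, against 89.3, 95.3 and 90.2 CPM in control cells, a log2 fold change of 0.60 ± 0.040 (SE, edgeR adjusted p = 6.56e-10). Rfc3, Rfc5, Rfc4 and Rfc2, the small subunits shared by the alternative clamp loaders, had log2 fold changes of 0.71, 0.67, 0.54 and 0.50, each with fed libraries above all controls. Rfc1, the large subunit particular to the replicative loader, had 53.3, 51.9 and 46.8 CPM in fed cells, against 58.4, 50.4 and 49.0 CPM in control cells. Its log2 fold change was -0.057 ± 0.067 (SE, edgeR adjusted p = 0.536), with overlapping groups, and it was positive at 0.025 without control replicate 1, the highest control library. Per kilobase of exon, Rfc1 made up 20.5, 19.2 and 17.9% of the summed RFC level in fed libraries and 30.5, 25.4 and 25.1% in control libraries, a description that follows from its fold change and those of its partners.

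The 3 subunits of RPA, which coats single-stranded DNA, were higher by unequal amounts, where 20.5% of all genes tested were higher. Rpa1, the large DNA-binding subunit, had 192, 205 and 191 CPM in fed cells, against 138, 142 and 146 CPM in control cells, a log2 fold change of 0.47 ± 0.039 (SE, edgeR adjusted p = 1.27e-08). Rpa2 had a log2 fold change of 0.60, and Rpa3, the smallest subunit, one of 0.27 ± 0.074 (SE, edgeR adjusted p = 0.00570). The change of Rpa3 was the smallest among the 42 genes called.

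Genes for joining lagging-strand fragments and for assembling chromatin on the new DNA also rose. Fen1, the flap endonuclease, had 48.3, 48.1 and 45.2 CPM in fed cells, against 24.8, 27.6 and 28.5 CPM in control cells, a log2 fold change of 0.81 ± 0.057 (SE, edgeR adjusted p = 1.57e-09). Lig1, the ligase that seals the fragments, had 85.9, 86.9 and 83.1 CPM in fed cells, against 55.8, 62.9 and 61.7 CPM in control cells, a log2 fold change of 0.51 ± 0.046 (SE, edgeR adjusted p = 3.95e-08). Rnaseh2a, the catalytic subunit of the nuclease that removes ribonucleotides, changed less, at 0.31 ± 0.068 (SE, edgeR adjusted p = 0.00106). Chaf1b and Chaf1a encode subunits of CAF-1, which deposits histones H3 and H4 behind the fork. Chaf1b had 33.7, 34.8 and 34.5 CPM in fed cells, against 18.2, 19.7 and 18.8 CPM in control cells, a log2 fold change of 0.86 ± 0.059 (SE, edgeR adjusted p = 8.85e-10). Chaf1a had 61.7, 57.4 and 58.2 CPM in fed cells, against 35.9, 37.5 and 39.9 CPM in control cells, a log2 fold change of 0.65 ± 0.051 (SE, edgeR adjusted p = 6.25e-09). The fed libraries lay above all controls in these 5 genes, as in 25.1% of all genes tested.

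Levels of different genes were compared as CPM per kilobase of exon, with all exons of a gene merged, so that a gene with rare long transcripts reads too low. Pcna was the highest of the 46, at 58.0 ± 1.78 in fed cells and 38.2 ± 1.35 in control cells (SD, n = 3 each). The MCM2-7 genes ran from Mcm6 at 47.6 ± 2.06 in fed cells and 31.2 ± 2.00 in control cells to Mcm2 at 17.5 ± 0.750 in fed cells and 10.6 ± 0.815 in control cells. In fed cells the 6 genes had separate ranges over the libraries, while in control cells those of Mcm6 and Mcm4 overlapped, and those of Mcm3, Mcm5 and Mcm7 overlapped as neighbours in the order. Among ORC genes Orc1 was the lowest, at 2.42 ± 0.178 in fed cells and 1.16 ± 0.0371 in control cells. Orc6 at 10.9 ± 0.733 in fed cells and 7.06 ± 0.347 in control cells stood above Orc3 in fed cells and below it in control cells.

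The mean MCM2-7 level divided by the mean ORC level was 5.49, 5.79 and 5.71 in fed libraries and 4.54, 4.87 and 4.97 in control libraries. The highest ORC gene exceeded the lowest 5.27-, 4.08- and 4.19-fold in fed and 6.53-, 6.47- and 7.18-fold in control libraries. These ratios did not overlap between the groups (exact two-sided permutation p = 0.1 each, the smallest possible). Like the shares, they follow from the fold changes given above and are a description. The same ratio of highest to lowest among the MCM2-7 genes was 2.73, 2.72 and 2.71 in fed and 3.08, 2.72 and 3.06 in control libraries, with overlapping groups (exact two-sided permutation p = 0.2). Gins4, at 29.4 ± 0.753 in fed cells and 23.5 ± 2.17 in control cells, was the highest of the GINS genes, and Gins3, at 2.98 ± 0.317 in fed cells and 1.86 ± 0.102 in control cells, the lowest. Across the 46 genes the log2 fold change and the mean level per kilobase had a Spearman correlation of -0.13, given as a description, since the genes share the same libraries.

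**Figure D4:**
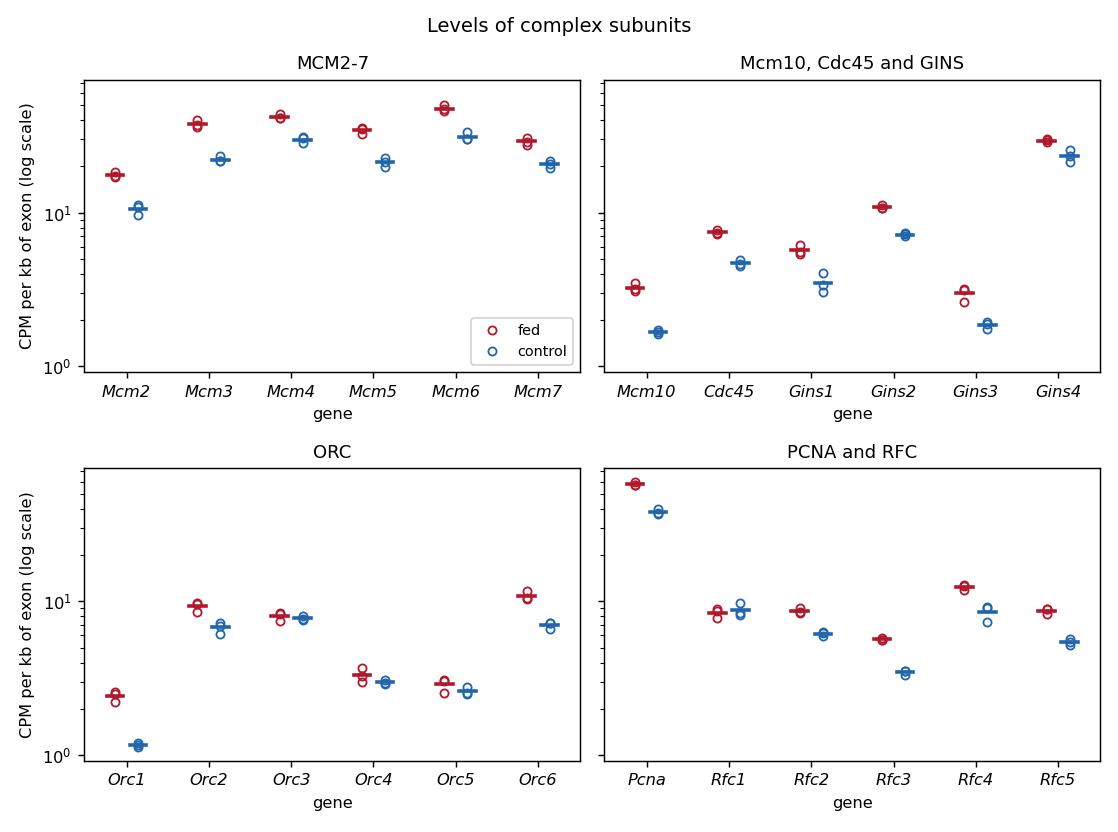
CPM per kilobase of exon (log axis) for subunits of MCM2-7, the helicase activators, ORC, and PCNA with RFC. Circles are libraries (fed left in red, control right in blue) and bars are group means; Orc3, Orc4, Orc5 and Rfc1 are the genes whose circles overlap between groups.

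Other genes of DNA replication moved the same way. Of 31 accessory factors outside the 46, 28 were higher, 0 lower and 3 not called, with a median log2 fold change of 0.44, beside 20.5%, 19.0% and -0.0066 for calls higher, calls lower and the median over all genes tested. Mms22l, which protects stalled forks with Tonsl, had 29.4 ± 1.32 CPM in fed cells and 17.2 ± 0.539 CPM in control cells (SD, n = 3 each), a log2 fold change of 0.78 ± 0.063 (SE, edgeR adjusted p = 8.67e-09). Dtl, the adaptor that targets Cdt1 for destruction, had a log2 fold change of 0.79, Top2a, a topoisomerase, of 0.44, and Wdhd1, which ties polymerase alpha to the helicase, of 0.66. The 3 not called were Pold4, Rnaseh2c and Top1, with log2 fold changes of -0.072, 0.017 and -0.021. Pold4 and Rnaseh2c encode small subunits of polymerase delta and RNase H2, so that in these complexes too a subunit gene was not called beside called partners.

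Of 20 genes of G1/S transcription and deoxynucleotide supply, 18 were higher and 0 lower, with a median log2 fold change of 0.52. Over all genes tested, 20.5% were higher and 19.0% lower, with a median of -0.0066. Ccne2, a cyclin that starts S phase, had 30.9 ± 1.88 CPM in fed cells and 17.1 ± 1.09 CPM in control cells (SD, n = 3 each), a log2 fold change of 0.86 ± 0.067 (SE, edgeR adjusted p = 6.24e-09). Tk1, thymidine kinase, had 95.7 ± 3.76 CPM in fed cells and 59.9 ± 3.17 CPM in control cells (SD, n = 3 each), and Rrm2 and Uhrf1 had log2 fold changes of 0.96 and 0.77. The 2 not called were the transcription factors E2f2 and E2f3, at 0.33 and 0.11.

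DNA polymerases and ligases of repair and mitochondria gave smaller values. Of 18 listed 17 were tested, and 7 were higher, 1 lower and 9 not called, where 20.5% of all genes tested were higher and 19.0% lower. The median log2 fold change of the list was 0.084, and -0.0066 over all genes tested. Those higher included Polq, of end joining, at 0.60, Xrcc1, a repair scaffold, at 0.31, and Polg, the mitochondrial polymerase, at 0.21. Rev3l, the catalytic subunit of the translesion polymerase zeta, was lower, with 26.5 ± 2.50 CPM in fed cells and 35.8 ± 4.72 CPM in control cells (SD, n = 3 each) and a log2 fold change of -0.44 ± 0.10 (SE, edgeR adjusted p = 0.00597). Of this list, 4 were higher when control replicate 2 or fed replicate 1 was omitted, and 3 by DESeq2. Fewer of all genes were then higher as well, 2075 of 13092 by DESeq2 and 2247 of 13224 without control replicate 2. The difference between this list and the 46 genes was not tested. The E2F letters stood in the start windows of 0 of 14 genes of this list and of 6 of 24 accessory factors. They stood in 8 of 18 genes of G1/S transcription and deoxynucleotide supply, and in 4.81% of the 9299 tested genes with a window. With 14 genes and so low a share over all genes, 0 does not set this list apart.

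**Figure D5:**
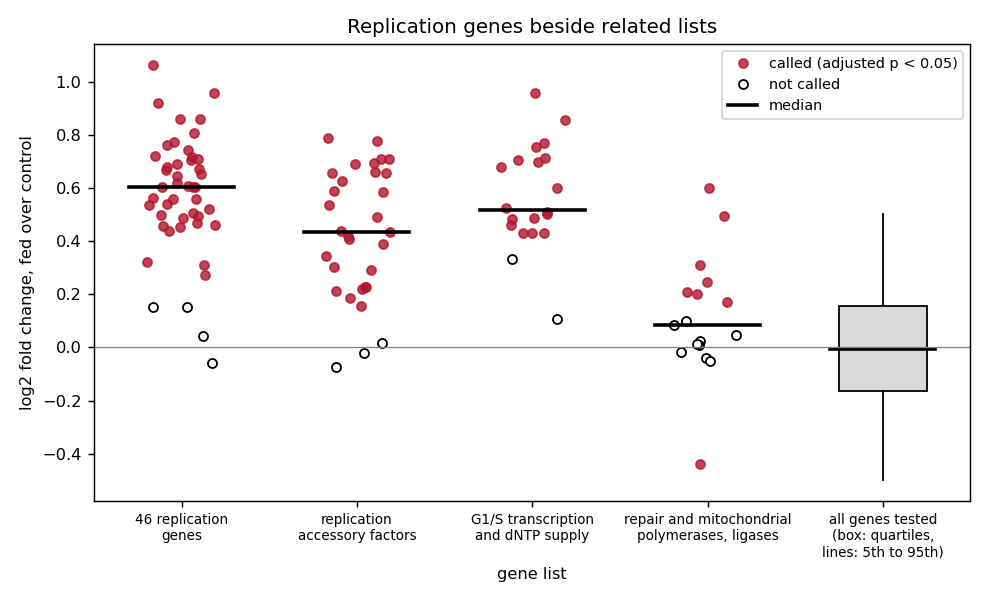
Log2 fold changes (fed over control) of the 46 replication genes and of 3 related lists. Points are genes, filled where called at an adjusted p under 0.05, and bars are medians (0.60, 0.44, 0.52 and 0.084); the box at the right gives quartiles and 5th to 95th percentile of all genes tested.

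Some of these genes share exon bases with a neighbour, and the strand setting of the authors' counting is not given in the sources used here. In the annotation of GRCm38, 15 of the 46 shared exon bases with a gene on the opposite strand and 5 with one on the same strand. The largest overlaps were 4648 bases of Chaf1a with Ubxn6, 2758 of Gins2 with Gse1 and 1909 of Fen1 with the antisense gene Gm10143. Of the 12 neighbours tested by edgeR, 0 were higher and 6 lower in fed cells, where 20.5% and 19.0% of all genes tested were. Ubxn6 had a log2 fold change of -0.19 and Gse1 of 0.12, against 0.65 and 0.60 for their partners. Gm10143 was not among the 12 neighbours tested. Acvr2a and Mbd5, which share bases with Orc4, had log2 fold changes of -0.56 and -0.36 and were lower. Pcna also has processed pseudogenes, to which its reads could be assigned in part, so its level is uncertain to that extent. Without the strand setting, the levels of Chaf1a, Gins2 and Fen1 per kilobase of exon are uncertain as well.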

How the data were processed

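RNA of 6 libraries was sequenced from 200 ng each with a stranded kit for polyadenylated RNA, per the labels. The authors deposited raw counts per gene symbol. Per the submitters' processing notes they used Trimmomatic 0.36, STAR 2.6.0c, featureCounts of Subread 1.6.1 and the build GRCm38. For the annotation release and strand setting, nothing is given in the sources used here. Names turned into dates, 27 of 53735, hold 0.227% of the counts.

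Genes were kept by filterByExpr, scaled by TMM and tested with the robust quasi-likelihood F-test of edgeR 4.0.16 in R 4.3.3, without a replicate block, over 13092 genes. SEs derive from the F statistic. The common coefficient of variation was 3.94%. Pairs of libraries of a group differed by more than sampling noise (chi-square per degree of freedom 2.67 to 6.17), so none was treated as a duplicate deposit of another. This does not show that they came from separate cultures. Positions and exon lengths come from GENCODE M21 on GRCm38. On simulated counts of 13000 genes, 48.0% of genes changed by 0.25 (log2) were recovered, 74.0% of those changed by 0.5 and 92.0% of those changed by 1. Of 166 calls 10 were false. Only 50 genes were changed at each of these sizes and at 2, while 39.5% of genes tested were called in the data. The rates depend on that share, so they do not give the power of this comparison.

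Values in every library are given for the 12 called genes with the largest change, MCM2-7, the genes not called and the most abundant gene of each role. From each related list the 4 called genes with the smallest adjusted p are named, and those called the other way. The uncalled list genes and the overlapping neighbours were named after their values were seen. The genes and lists were chosen with earlier results of these data known. A planned search for PCNA-binding motifs in proteins was not run, since no protein table was used here. Alternatives were RLE scaling, library totals only, no filter, a stricter filter, DESeq2 1.42.0, a replicate block, an adjusted p under 0.01 and each library left out in turn.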

Additional observations from a re-analysis of the deposited data

How the results depend on the processing

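The count of replication genes called higher was 42 or 43 of 46 under all 13 alternatives, with 0 lower in each, and the 42 called genes were called higher in all 13. Without each library in turn it was 42 to 43. All genes called higher numbered 2179 to 2623 without each library and all called lower 1966 to 2465. The higher members of the list of repair and mitochondrial polymerases and ligases, 7 in all libraries, were 3 by DESeq2 and 3 at an adjusted p under 0.01. They were 4 to 5 without each library in turn. Of all 13092 genes, 2075 were higher by DESeq2 and 1940 at an adjusted p under 0.01. Rfc1 had log2 fold changes from -0.10 to 0.025 without each library in turn, the highest without control replicate 1 (edgeR adjusted p = 0.783), and -0.057 with all libraries. The cause was not tested.

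The deviations of same-numbered fed and control libraries correlated at 0.10, 0.022 and 0.13, and those of different numbers at -0.12 to 0.027. The same-number values were low, so the numbers were not taken as pairing. Still, 5 of the 6 libraries correlated best with their own number, so pairing is not excluded. With the replicate block 43 of the 46 genes were higher, Orc4 being added (edgeR adjusted p = 0.0436), and 2989 of all genes were higher and 2859 lower. With library totals only, the median of all genes was 0.025, and 3183 of all genes were higher and 2029 lower, against 2682 and 2493 with TMM. Depth limits the rarest genes most. The standard error was 0.12 for Cdc7 and 0.039 for Rpa1.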
